A study of Mus musculus with 14 samples.

Results

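The clustered histone genes are the gene families that sit side by side in the Hist1, Hist2, Hist3 and Hist4 clusters of the mouse genome. They were taken as every gene of the deposited annotation whose symbol began with Hist1h, Hist2h, Hist3h or Hist4 and that had at least 10 counts in total over the 14 libraries. Of 70 genes with such a symbol, 65 met this minimum, out of 30503 genes counted in all. They comprised 6 linker histone H1 genes, 17 H2A, 18 H2B, 11 H3 and 13 H4 genes, with 53 in the Hist1 cluster on chromosome 13, 8 in Hist2 on chromosome 3, 3 in Hist3 on chromosome 11 and 1 in Hist4 on chromosome 6. Of the 5 genes that fell short, Hist1h2ba, Hist1h2aa and Hist2h3c1 had 0 counts and Hist2h2ab and Hist1h2aj had 2 each, while the members closest above the minimum were Hist3h2bb-ps with 13, Hist1h2an with 14 and Hist3h2ba with 17.

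The samples were cultured single clones of tdTomato+ skeletal cells from mouse femur bone marrow, profiled by bulk RNA-seq with 1 library per clone. All clones carried the Fgfr3-creER transgene and the R26R(tdTomato/+) reporter, and tamoxifen was given at postnatal day 21, so that cells with activity of the Fgfr3 transgene at that time, and their descendants, became red. The 5 Fgfr3-WT (P23) clones carried no other allele in their label, were isolated at postnatal day 23 and were grown to passage 8. The 5 Fgfr3-p53 cKO (P28) clones also carried Trp53fl/fl, were isolated at postnatal day 28 and were grown to passage 8, and the 4 Fgfr3-p53 cKO (P4M) clones had the same genotype, were isolated at 4 months and were grown to passage 6 to 8. They are called WT, P28 cKO and P4M cKO clones here. The labels do not tie clones to animals, so the tests measure the spread between clones. The sample names of the WT libraries carry the number 1303 and those of all cKO libraries the number 2963. The labels do not say what this number stands for, and it is called the submission here. The WT clones were also isolated at a different age. The study reports that cKO clones grew faster than WT clones and that a larger share of them survived serial passage. The same passage number therefore did not mean the same time in culture. Genotype, submission, age, time in culture and survival of clones cannot be told apart in either comparison with WT. Only the comparison of P4M with P28 cKO clones lay within 1 submission. In a bulk library, fewer cells that make a transcript and less of it per cell cannot be told apart.

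Replication-dependent histone genes supply the core histones H2A, H2B, H3 and H4, around which DNA is wound into nucleosomes, and the linker histone H1 that binds between them. They are transcribed mainly while DNA is copied in S phase, and their mRNAs are the known exception among animal mRNAs in ending at a short hairpin, the histone stem-loop, instead of a poly(A) tail. Stem-loop binding protein, encoded by Slbp, holds this end through processing and translation, and some clustered histone genes can also make longer transcripts with a poly(A) tail in resting or differentiated cells. The library kit named in the labels, SMART-Seq v4, primes complementary DNA on poly(A), so in these libraries a change in the amount of a histone mRNA and a change in the kind of 3′ end that it carried cannot be told apart.

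The stem-loop is shown for members that the results turn on, because the measured RNA depends on whether transcripts end there. It was searched as a hairpin of 16 bases whose outer arms of 6 bases pair, among GENCODE M21 transcripts on GRCm38, on the transcript strand. The capitals mark the hairpin, in lower case are up to 5 bases on either side, and coordinates are those of the hairpin.
Hist1h1c, chr13:23739512-23739527, plus strand: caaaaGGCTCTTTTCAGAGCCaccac
Hist2h2aa1, chr3:96246032-96246047, plus strand: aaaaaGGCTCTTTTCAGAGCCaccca
Hist2h2aa2, chr3:96239784-96239799, minus strand: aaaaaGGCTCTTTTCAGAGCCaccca
Hist1h2ao, chr13:21810898-21810913, plus strand: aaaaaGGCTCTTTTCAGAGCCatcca
Hist1h2ap, chr13:21833029-21833044, minus strand: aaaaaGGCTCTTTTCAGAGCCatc
Hist1h4h, chr13:23531458-23531473, plus strand: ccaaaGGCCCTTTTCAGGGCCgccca
Hist1h4i, chr13:22040966-22040981, minus strand: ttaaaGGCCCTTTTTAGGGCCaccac
Hist2h4, chr3:96262939-96262954, minus strand: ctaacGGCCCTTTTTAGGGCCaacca
The hairpin of Hist1h1c and of the H2A genes above was the most common, found in 25 members, and the form of Hist1h4h was found in 7. A match is a description of letters and not of use. The annotated transcripts of 23 members ended within 100 bases of the hairpin and those of 22 ran further past it, by 840 bases in Hist1h1c, 330 in Hist1h4i and 1257 in Hist2h4. In Hist1h2bc, Hist1h2bq and Hist1h2br a transcript was spliced after the coding end, over an intron of 7554 bases in Hist1h2bc and 1149 in Hist1h2bq. The models of 12 members stopped at the stop codon, no hairpin was found in 3 and 2 had no coding transcript.

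Promoters are shown for 5 members, the H2A genes called with the largest fold changes, Hist2h2aa2 as the copy of Hist2h2aa1, and the H4 gene of highest level. The sequences are from RefSeq on GRCm38.p6 and run from 250 bases before to 50 bases after the annotated start, in the direction of transcription. The capitals mark CCAAT or TATAAA, or either read on the opposite strand.
Hist1h2ao, chr13:21810117-21810416, plus strand: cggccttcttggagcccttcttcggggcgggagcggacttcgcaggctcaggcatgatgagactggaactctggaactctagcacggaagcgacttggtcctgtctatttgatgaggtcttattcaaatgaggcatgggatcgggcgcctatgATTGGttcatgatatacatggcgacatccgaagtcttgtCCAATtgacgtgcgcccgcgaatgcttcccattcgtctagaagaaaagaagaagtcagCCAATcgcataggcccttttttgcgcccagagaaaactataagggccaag
Hist1h2ap, chr13:21833426-21833725, minus strand: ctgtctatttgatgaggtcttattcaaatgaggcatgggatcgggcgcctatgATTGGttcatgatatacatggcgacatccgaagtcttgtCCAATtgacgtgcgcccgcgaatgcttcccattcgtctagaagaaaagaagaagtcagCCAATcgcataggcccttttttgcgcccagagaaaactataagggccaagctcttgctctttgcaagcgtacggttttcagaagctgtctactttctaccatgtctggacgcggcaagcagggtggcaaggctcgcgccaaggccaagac
Hist2h2aa1, chr3:96245247-96245546, plus strand: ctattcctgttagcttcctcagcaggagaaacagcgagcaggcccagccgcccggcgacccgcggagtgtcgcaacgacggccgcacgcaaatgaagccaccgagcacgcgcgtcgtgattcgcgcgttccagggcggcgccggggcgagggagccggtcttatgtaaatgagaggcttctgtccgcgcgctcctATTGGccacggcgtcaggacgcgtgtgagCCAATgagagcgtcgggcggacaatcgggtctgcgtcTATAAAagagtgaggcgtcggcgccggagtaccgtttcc
Hist2h2aa2, chr3:96240325-96240624, minus strand: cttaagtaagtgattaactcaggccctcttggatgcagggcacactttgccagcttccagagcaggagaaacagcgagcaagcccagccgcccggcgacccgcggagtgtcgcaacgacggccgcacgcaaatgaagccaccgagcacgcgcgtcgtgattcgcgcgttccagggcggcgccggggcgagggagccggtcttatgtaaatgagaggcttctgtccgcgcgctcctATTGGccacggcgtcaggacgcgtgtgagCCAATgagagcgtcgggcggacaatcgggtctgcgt
Hist1h4h, chr13:23530794-23531093, plus strand: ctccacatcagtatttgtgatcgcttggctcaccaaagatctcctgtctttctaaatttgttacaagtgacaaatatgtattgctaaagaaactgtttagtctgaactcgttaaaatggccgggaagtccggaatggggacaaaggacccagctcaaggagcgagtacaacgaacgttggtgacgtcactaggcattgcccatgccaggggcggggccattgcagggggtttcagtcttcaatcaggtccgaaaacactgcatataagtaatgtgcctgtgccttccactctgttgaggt
Hist1h2ao and Hist1h2ap shared an unbroken run of 200 bases in these windows, and Hist2h2aa1 and Hist2h2aa2 a run of 219 bases. Of the 65 members, 58 matched a RefSeq promoter. Searched on both strands, CCAAT, the letters known as the CCAAT box, was found in 49 of the 58 (84.5%), against 37.4% of 32851 RefSeq promoters. TATAAA, the letters of a TATA box, was found in 32 (55.2%), against 13.6% of all promoters, and ATTTGCAT, the octamer known from H2B promoters, in 12 (20.7%), against 1.74%. None of these letter strings contains another. CCAAT was present in every matched promoter of H1, H2A, H2B and H3 genes and in 3 of 12 H4 promoters, among which the Hist1h4h window held none, and the octamer was found in 6 H2A and 6 H2B promoters and in no promoter of another class. A missing match says only that these letters are not in the window.

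The libraries held 25688946 to 52857424 counts, and a count of 3 in a library stood for 0.0568 to 0.117 CPM, counts scaled to the size of the library. The targeted gene followed the labels, with Trp53 at 49.9 to 68.1 CPM in the 5 WT clones and at 1.72 to 2.84 CPM in the 9 cKO clones. Skeletal cell markers were present, with Pdgfrb at 54.5 to 141 TPM in WT and 66.3 to 169.7 TPM in cKO clones (TPM, levels scaled to gene length and library size), but Col1a1, the main collagen of bone, was at 0.3 to 251 TPM in WT against 1842 to 12374 TPM in cKO clones. The summed level of the 10 skeletal markers was 172 to 1874 TPM in WT and 4992 to 22136 TPM in cKO clones. In P28 cKO clones 2 were called higher and 1 lower (all genes tested: 19.2% and 19.7%). In P4M cKO clones 4 were higher and 1 lower (all genes tested: 22.3% and 23.6%). The lower was Sox9, a cartilage regulator (-2.16 and -3.39 on the log2 scale, edgeR). Of 11 blood cell markers, 9 were above 0 in at least 1 clone, and their summed level was 23.1 to 165 TPM in WT, 5.8 to 34.7 TPM in P28 cKO and 6.85 to 11.9 TPM in P4M cKO clones. It came mainly from Lyz2 and Cd68, while Ptprc did not exceed 0.07 TPM and Ms4a1 and Hbb-bs were at 0 in all 14. Of 6 endothelial markers, 5 were above 0 in at least 1 clone and Cdh5 in none, and their sum stayed at or below 4.24 TPM except in P4M cKO clone 3, at 108 TPM, of which Vwf made 104.8. The part of these differences in the histone results was not tested.

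The summed level of the 65 members did not separate the genotypes. It was 154, 1164, 1265, 660 and 1469 TPM in WT clones 1 to 5, with a mean of 942 ± 532 (SD, n = 5). In P28 cKO clones it was 818, 824, 845, 783 and 920.4 TPM (838 ± 51.2, n = 5), and in P4M cKO clones 721, 990.3, 656 and 838 TPM (801 ± 147, n = 4). All cKO clones lay within the WT range, and the WT range was set at its lower end by clone 1. Over the same clones, the summed level of 20 S phase genes was 195 to 299 TPM in WT and 450 to 1368 TPM in cKO clones, and that of 18 G2 and M phase genes was 29.4 to 162 TPM in WT and 331 to 1035 TPM in cKO clones. In WT clone 1, with the lowest summed histone level, the S phase sum was 216 TPM, inside the range of the other WT clones. The summed levels of the replication and mitosis genes were thus higher in every cKO clone than in any WT clone, and the summed level of the histone genes was not.

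**Figure D1:**
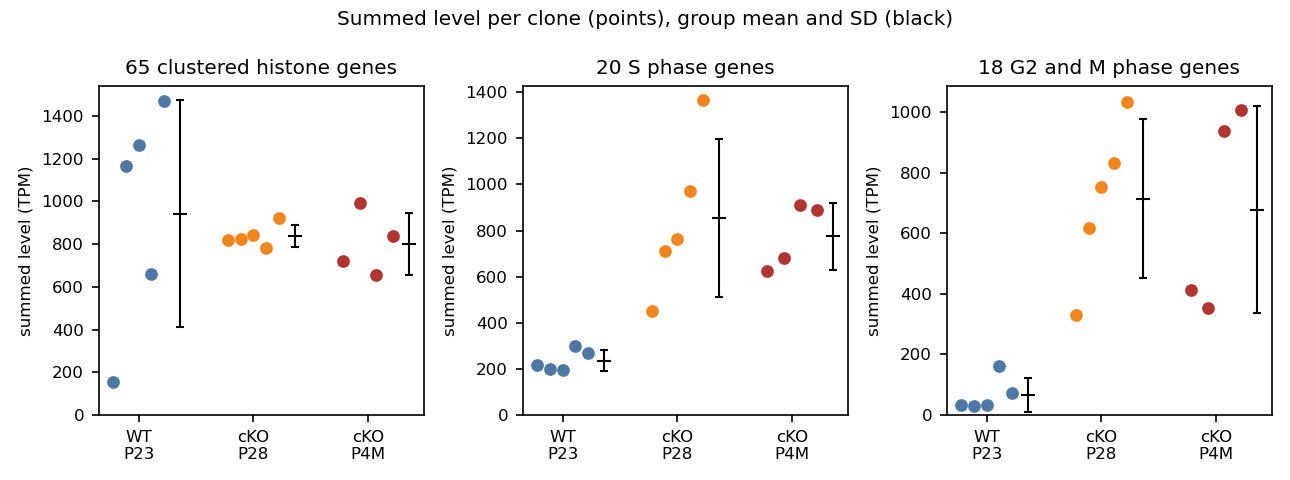
Summed level in TPM (linear axis from 0) per clone for the 65 clustered histone genes, 20 S phase genes and 18 G2 and M phase genes, with each point 1 clone and the bar the group mean ± SD (5 WT, 5 P28 cKO, 4 P4M cKO clones). The histone sum of the cKO clones, 656 to 990.3 TPM, lies inside the WT range of 154 to 1469 TPM, whereas the cKO clones lie above all WT clones in the S phase and the G2 and M phase sums.

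By class, the H4 genes had a mean summed level of 125 ± 102 TPM in WT (SD, n = 5), 46.1 ± 6.59 in P28 cKO (n = 5) and 39 ± 9.98 in P4M cKO clones (n = 4). WT clones 1 to 5 were at 14.1, 166, 143, 37.4 and 265 TPM. The cKO range of 31.8 to 57.3 TPM lay above WT clone 1, held WT clone 4 within it and lay below WT clones 2, 3 and 5. The H2A genes summed to 322 ± 160, 445 ± 95.8 and 306 ± 49.8 TPM, and the H2B genes to 258 ± 155, 178 ± 34.3 and 192 ± 26.6 TPM, in the same order of groups. H1 genes were at 205 ± 134, 145 ± 37.6 and 238 ± 83.2 TPM, and H3 genes were the least abundant class at 33.2 ± 20.8, 24.4 ± 2.43 and 26.9 ± 6.45 TPM. In each class the group ranges overlapped, and no test was made on the sums.

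A few members carried most of the signal. The 2 with the highest mean level, Hist1h1c and Hist1h2bc, held a median of 37.7% of the summed TPM (19.7% to 54% over the clones), the top 4 held 71.8% and the top 10 held 87.5%. In order of mean TPM over the 14 clones these were Hist1h1c (188), Hist1h2bc (139.98), Hist2h2aa2 (126), Hist1h2ap (116), Hist1h2bq (41.8), Hist2h2aa1 (37), Hist1h2al (32.3), Hist1h2ao (23.8), Hist1h4h (22.7) and Hist1h4i (20.6), and the same 10 led by FPKM. The spread between clones of a group, given below, was larger than the distance between most neighbours in this order. At the other end, Hist4h4, the H4 gene alone in the Hist4 cluster, had the lowest mean TPM of the 65, at 0.0651 to 0.459 CPM in WT and 0.0376 to 0.15 CPM in cKO clones, and was too low to test.

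**Figure D2:**
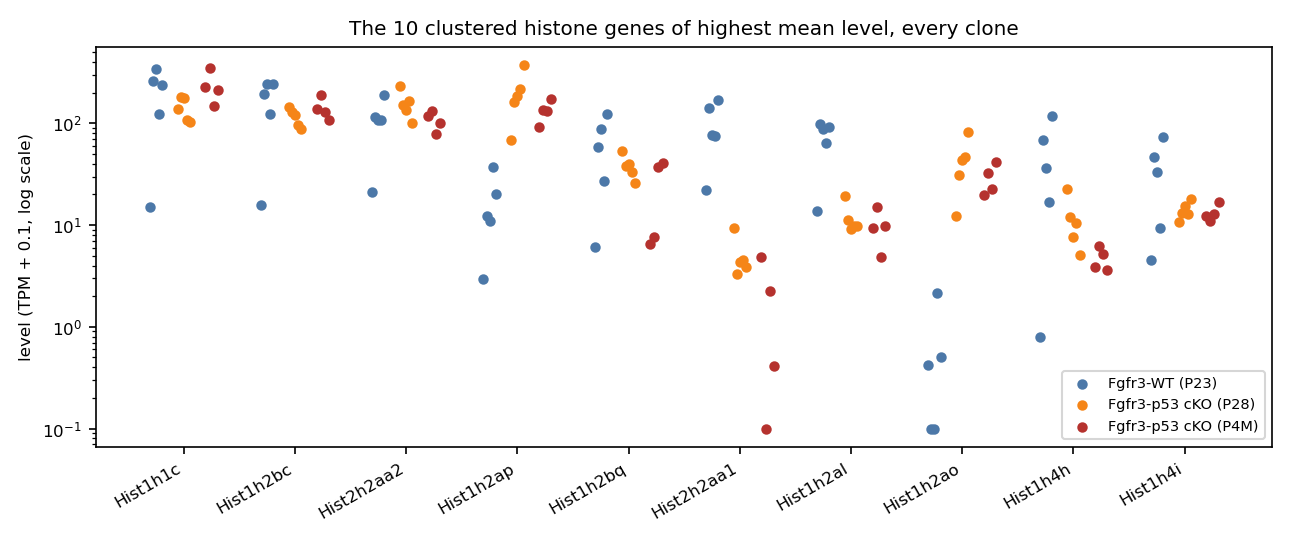
TPM plus 0.1 per clone on a log axis for the 10 members of highest mean TPM, with WT, P28 cKO and P4M cKO clones side by side. Hist2h2aa1 is lower and Hist1h2ao and Hist1h2ap are higher in all cKO clones than in all WT clones, and WT clone 1 is the low point of many members.

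To ask which members differed between groups, counts were compared by edgeR's quasi-likelihood test over 17358 genes in 1 fit of all 14 clones, with a false discovery rate (FDR, Benjamini-Hochberg) under 0.05 as the call. Of the 65 members, 40 passed the filter on low counts, and the 25 that did not had mean levels of 0.0786 to 1.69 TPM and at most 0.742 CPM in any clone. In P28 cKO against WT clones, 3 of the 40 were called higher (all genes tested: 19.2%) and 12 lower (all genes: 19.7%), and the median log2 fold change of the 40 was -0.80, beside -0.02 over all genes tested. In P4M cKO against WT clones, 3 were again called higher (all genes: 22.3%) and 12 lower (all genes: 23.6%), with a median of -0.63 beside -0.06. With both cKO groups averaged, 3 were higher (all genes: 23.1%) and 15 lower (all genes: 25.7%), with a median of -0.92 beside -0.05. Both comparisons share the WT clones. In the fit of all 14 clones the share called lower, 30% in each, stood beside 19.7% of all genes in P28 and, closer, 23.6% in P4M cKO clones. The share called higher, 7.5%, stood beside 19.2% and 22.3%. Many members share sequence, so the 40 are not separate features. The share called lower depended on single clones. WT clone 1 was the lowest of the 5 WT clones in 31 of the 40 members, against 29.6% of all genes tested. Without it, 21 members were lower in P28 cKO clones (all genes: 21.6%) and 19 in P4M cKO clones (all genes: 24.7%), with 3 higher in each. Without WT clone 2 or WT clone 3, 7 of 39 tested members were called lower in P28 cKO clones, not above the 19.7% of the full fit. Leaving out each clone gave 7 to 21 lower in P28 and 8 to 19 in P4M cKO clones. The low ends were not above the background of the full fit, and the share of all genes in those fits is not given here.

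By class, 4 of 10 tested H4 genes were lower in P28 cKO clones and 3 of 10 in P4M cKO clones, with medians of -1.62 and -1.47. Of 10 tested H2B genes, 2 were lower in P28 and 5 in P4M cKO clones, with medians of -0.81 and -1.59. The sum of 11 H2B genes linked by shared sequence, given below, was not called in either comparison. Hist1h2bb, Hist1h2bh and Hist2h2bb are not in that group. Of 4 tested H1 genes, 2 and 1 were lower. In the H2A class 2 of 10 were higher and 3 lower in each comparison, and of 6 tested H3 genes 1 was higher in each and 1 lower in P28 cKO clones. Over all genes tested, 19.2% were higher and 19.7% lower in P28 cKO and 22.3% higher and 23.6% lower in P4M cKO clones, so that 2 or 3 of 10 lay near the background. By the annotated end, all 3 genes called higher ended at the stem-loop, of 11 such genes tested, of which 2 were lower in P28 and 3 in P4M cKO clones. Of 19 tested genes whose annotated transcript ran past the stem-loop, none was higher and 8 were lower in P28 and 6 in P4M cKO clones, by the same test, and Hist1h2bc, Hist1h2bq and Hist1h2br, spliced after the coding end, had 0 and 1 called lower. Of the 3 called higher, Hist1h2ao and Hist1h2ap share most of their sequence with other members and cannot be read as single genes. Hist1h3c lost its calls in some fits without 1 clone, as given below. Whether annotated end and direction are related was not tested.

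**Figure D3:**
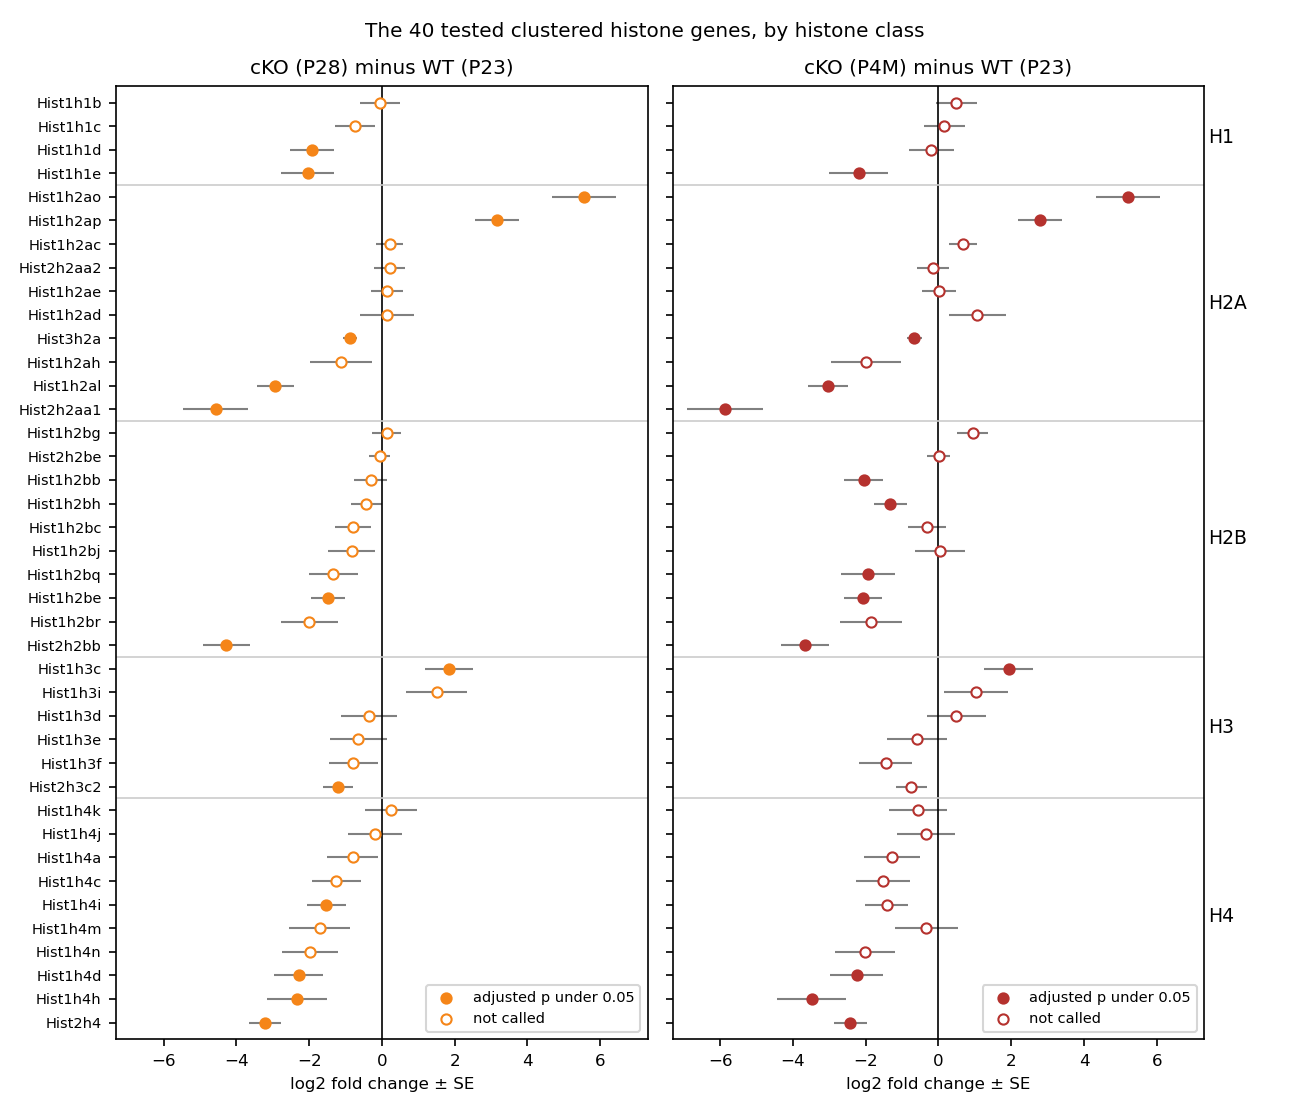
Log2 fold change ± SE of the 40 tested members, by histone class, in P28 cKO and in P4M cKO against WT clones, with filled points for an FDR under 0.05 by edgeR's quasi-likelihood test. Filled points to the right of 0 are Hist1h2ao, Hist1h2ap and Hist1h3c, and 12 filled points lie to the left in each comparison.

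Hist1h1c (ENSMUSG00000036181, chr13:23738808-23740367, plus strand) encodes the linker histone H1.2 and was the member of highest level. It was measured at 13.8, 254, 329.3, 139.7 and 226 CPM in WT clones 1 to 5, at 114, 154, 140.2, 84.5 and 81.6 CPM in P28 cKO clones and at 206, 328, 137 and 193 CPM in P4M cKO clones. Both cKO groups lay inside the WT range. The log2 fold change was -0.75 ± 0.55 (SE, FDR 0.299) in P28 cKO and 0.17 ± 0.58 (FDR 0.834) in P4M cKO clones, by edgeR's quasi-likelihood test. Without WT clone 1 the first was -1.08 with an FDR of 0.0117, past the threshold that it missed with this clone. Hist1h1d and Hist1h1e, which encode other linker histones, were lower in level. Hist1h1d was at 0.358, 6.08, 8.17, 2.67 and 5.81 CPM in WT, at 1 to 1.57 CPM in P28 cKO and at 1.95 to 7.02 CPM in P4M cKO clones. It fell in P28 cKO clones by 1.92 ± 0.60 on the log2 scale (FDR 0.0222, edgeR) and was at -0.20 ± 0.62 (FDR 0.813) in P4M cKO clones. Hist1h1e was at 0.163, 10, 15.7, 3.36 and 9.33 CPM in WT and at 1.05 to 3.03 CPM in cKO clones, with log2 fold changes of -2.04 ± 0.73 (FDR 0.0412) and -2.20 ± 0.80 (FDR 0.0379). Its calls were lost in 9 and 7 of the 14 fits that left out 1 clone, and it overlaps Hist1h2be on the same strand, so reads of the overlap cannot be placed.

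Hist1h2bc (ENSMUSG00000018102, chr13:23684199-23692908, plus strand), an H2B gene, was second in level. The WT clones were at 9.9, 131, 159, 97.6 and 158 CPM, the P28 cKO clones at 81.5, 74.9, 66.4, 52 and 47.1 CPM and the P4M cKO clones at 86.6, 123, 82.2 and 67.9 CPM. All cKO clones were below WT clones 2, 3 and 5 and above WT clone 1. Its log2 fold changes were -0.79 ± 0.49 (FDR 0.221) and -0.31 ± 0.52 (FDR 0.657), and without WT clone 1 they were -1.12 (FDR 0.00163) and -0.61 (FDR 0.0411), by edgeR's quasi-likelihood test. Hist1h2bq (chr13:21806612-21810197, minus strand), another H2B gene, was at 0.586, 12.2, 16.5, 6.31 and 18.2 CPM in WT, at 3.02 to 5.8 CPM in P28 cKO and at 0.83, 1.46, 3.81 and 5.15 CPM in P4M cKO clones. It was called lower in P4M cKO clones only (-1.93 ± 0.74, FDR 0.0472 by edgeR, against -1.33 ± 0.67 and FDR 0.133 in P28), and the call was lost in 11 of 14 fits without 1 clone. Of its 50-base stretches 97.3% also occurred in other members, so it cannot be read as a single gene. The 11 Hist1 H2B genes linked by shared sequence, fitted as 1 feature, were at -0.86 ± 0.47 (FDR 0.166) and -0.45 ± 0.50 (FDR 0.486, edgeR). Hist1h2bc had the most counts of these and shared 29.4% of its stretches. Hist1h2be, which shares its locus with Hist1h1e, was at 2.54, 12.8, 17.55, 4.83 and 12.6 CPM in WT, 1.97 to 6.41 CPM in P28 cKO and 1.59 to 3.02 CPM in P4M cKO clones. It fell by 1.48 ± 0.47 on the log2 scale (FDR 0.0246, a call lost in 4 of 14 fits) and by 2.07 ± 0.53 (FDR 0.00616).

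The members called higher among those with at least 1 CPM on average were Hist1h2ap and Hist1h2ao, a pair of H2A genes of the Hist1 cluster. Hist1h2ap (ENSMUSG00000094777, chr13:21833026-21833507, minus strand) was at 0.456, 2.06, 1.82, 7.68 and 3.4 CPM in WT, at 9.91, 24.4, 25.7, 29.6 and 50.05 CPM in P28 cKO and at 14.6, 22.5, 20.5 and 28 CPM in P4M cKO clones. Each cKO clone was above each WT clone. It rose by 3.17 ± 0.61 on the log2 scale in P28 cKO (FDR 0.00146) and by 2.79 ± 0.61 in P4M cKO clones (FDR 0.00275, edgeR), and its mean level went from 16.7 ± 13 TPM (SD, n = 5) in WT to 202 ± 111 TPM (n = 5) and 134 ± 33.8 TPM (n = 4). Hist1h2ao (ENSMUSG00000094248, chr13:21810465-21810944, plus strand) was at 0.0651, 0, 0, 0.427 and 0.0791 CPM in WT, mostly under the level of 3 counts. It was at 1.74, 4.54, 5.88, 6.3 and 10.9 CPM in P28 cKO and at 3.09, 5.37, 3.41 and 6.61 CPM in P4M cKO clones, again with no overlap, and the fitted log2 fold changes were 5.56 ± 0.88 (FDR 0.000428) and 5.21 ± 0.88 (FDR 0.000489, edgeR). With WT so near 0, the size of this fitted change depends on the prior count.

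These H2A genes cannot be read as single genes. Of the 50-base stretches of Hist1h2ap and Hist1h2ao, the length of a read, 93.1% and 93.5% also occurred in other members, and how such reads were divided is not given in the sources used here. The study's methods describe counting of unambiguous reads alone, yet Hist2h2aa2, in which every stretch is shared, carried counts, and the deposited counts equal the deposited expected counts. Genes were linked into groups where at least 50% of the stretches of either of a pair occurred in the other, so that a member of a group may share less with the rest, as Hist1h2ac (11.6%) and Hist1h2ae (43.2%) did. Summed over the 11 linked Hist1 H2A genes, the level was 8.12, 22.5, 25.1, 45.1 and 42.7 TPM in WT, 92.7, 209, 246, 273 and 479 TPM in P28 cKO and 123, 183, 166 and 233 TPM in P4M cKO clones. No cKO clone overlapped a WT clone. Fitted as 1 feature, the sum rose by 2.45 ± 0.45 on the log2 scale in P28 cKO (FDR 0.00109) and by 2.16 ± 0.46 in P4M cKO clones (FDR 0.00211, edgeR). The rise of this group of H2A genes therefore did not rest on how reads were divided among its 11 members, whereas the share of each gene does.

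The Hist2h2aa genes are an H2A pair in inverted copies on chromosome 3, of which 1 was called and the other was not. Hist2h2aa1 (ENSMUSG00000064220, chr3:96245497-96246082, plus strand) was at 5.14, 34.2, 18.8, 22.3 and 41.3 CPM in WT, at 1.93, 0.693, 0.854, 0.886 and 0.742 CPM in P28 cKO and at 1.11, 0, 0.493 and 0.0751 CPM in P4M cKO clones. Each cKO clone was below each WT clone, and it fell by 4.57 ± 0.89 (FDR 0.00158) and by 5.86 ± 1.05 (FDR 0.000731) on the log2 scale by edgeR's quasi-likelihood test. Hist2h2aa2 (ENSMUSG00000063954, chr3:96239749-96240276, minus strand) was at 4.07, 23.3, 21.7, 26.7 and 38.5 CPM in WT, at 39.8, 27, 22.4, 27.2 and 16.2 CPM in P28 cKO and at 22.2, 26.1, 14.7 and 19.4 CPM in P4M cKO clones. The groups overlapped and the test called no difference, with 0.21 ± 0.42 (FDR 0.718) and -0.15 ± 0.45 (FDR 0.806, edgeR). The difference between the copies was not tested. All 50-base stretches of either gene also occur in other annotated genes, among them Gm20632, Gm20633 and Gm20634 at the same place.

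Hist1h2al (chr13:51202727-51203065, minus strand), which lies far from the rest of the Hist1 cluster, shares 67.6% of its stretches with these Hist2h2aa genes and other members. It was at 0.977, 6.92, 6.39, 5.94 and 6.76 CPM in WT, 0.516 to 1.2 CPM in P28 cKO and 0.296 to 1.05 CPM in P4M cKO clones, and fell by 2.93 ± 0.51 (FDR 0.000784) and by 3.04 ± 0.56 (FDR 0.000869, edgeR) on the log2 scale. Only WT clone 1 overlapped the cKO clones. Hist1h2al, Hist2h2aa1 and Hist2h2aa2 summed gave -0.90 ± 0.41 (FDR 0.102) in P28 cKO and -1.28 ± 0.45 (FDR 0.0326) in P4M cKO clones. With Gm20632, Gm20633 and Gm20634 added, the 6 genes were at 26.8, 125, 124, 82.2 and 128 CPM in WT, 33.2 to 78.8 CPM in P28 cKO and 43.1 to 71 CPM in P4M cKO clones. The log2 fold changes were then -0.86 ± 0.35 (FDR 0.0675) and -0.79 ± 0.38 (FDR 0.1004, edgeR), and -0.83 (FDR 0.0364) with both cKO groups averaged.

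**Figure D4:**
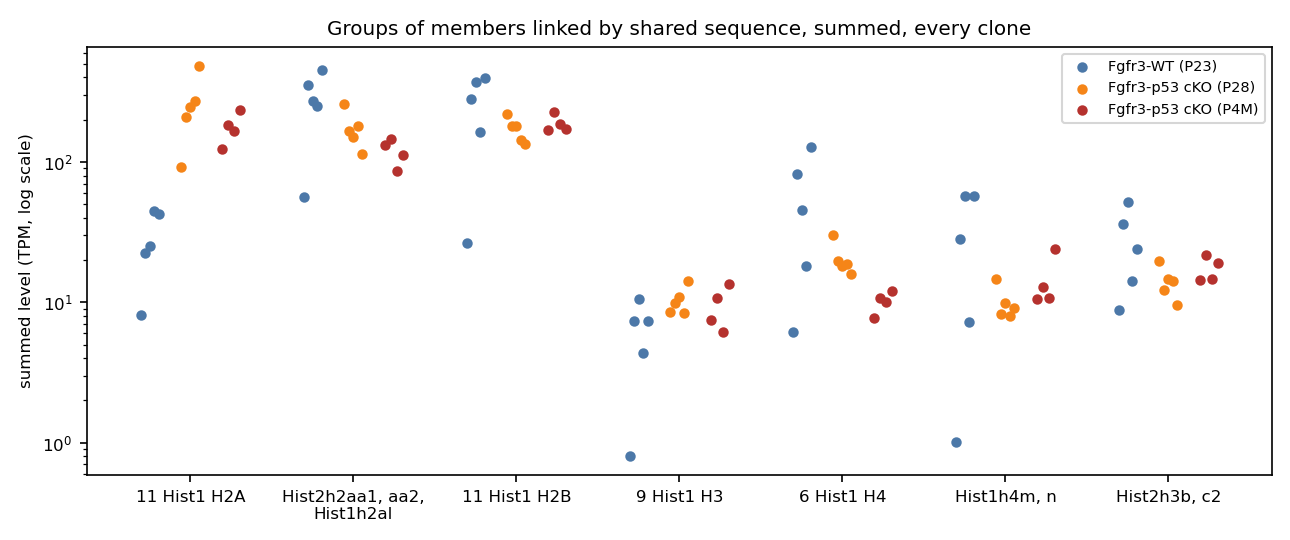
Summed TPM per clone on a log axis for the 7 groups of members linked through pairs in which at least 50% of the 50-base stretches of either gene occur in the other. The 11 linked Hist1 H2A genes lie higher in all cKO clones (92.7 to 479 TPM) than in all WT clones (8.12 to 45.1 TPM), and the other 6 groups overlap between the genotypes.

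The fitted signs of divergent neighbours were not always the same. Clustered H2A and H2B genes often lie head to head, and 13 such pairs of members, 12 of them H2A with H2B, had fewer than 1000 bases between them, of which 5 had both genes tested. In 3 of the 5 the signs of the fold changes were opposite in both comparisons with WT. Hist1h2ao, called higher, and Hist1h2bq, called lower in P4M cKO clones, are 267 bases apart. Hist1h2ap is 235 bases from Hist1h2br, an H2B gene with log2 fold changes of -1.99 (FDR 0.0625) and -1.85 (FDR 0.0921, edgeR) that did not pass the test. The promoter windows of Hist1h2bq and Hist1h2br shared a run of 300 bases, and those of Hist1h2ao and Hist1h2ap a run of 200. In Hist1h2bq 97.3% of the 50-base stretches also occurred in other members, in Hist1h2ao 93.5% and in Hist1h2ap 93.1%. These pairs are thus not separate observations, and the sign of each gene cannot be read alone. Hist1h2ac, an H2A gene, is 250 bases from Hist1h2bc, with 0.22 and 0.68 on the log2 scale, neither called.

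Among the H4 genes, all of which encode the same or nearly the same protein, Hist1h4h (ENSMUSG00000060981, chr13:23531050-23531519, plus strand) had the highest level. It was at 0.0977, 10.9, 5.86, 3.3 and 19 CPM in WT, at 3.07, 1.7, 0.973, 1.37 and 0.64 CPM in P28 cKO and at 0.553, 0.955, 0.75 and 0.526 CPM in P4M cKO clones. WT clone 1 was below all cKO clones and the other 4 WT clones were above them. It fell by 2.33 ± 0.83 (FDR 0.0396, a call lost in 6 of 14 fits without 1 clone) and by 3.49 ± 0.96 (FDR 0.00981, edgeR) on the log2 scale. Hist1h4i (ENSMUSG00000060639) was at 1.46, 16.4, 11.4, 3.84 and 25 CPM in WT, 3.18 to 5.02 CPM in P28 cKO and 3.68 to 5.52 CPM in P4M cKO clones, with -1.52 ± 0.55 (FDR 0.0412, lost in 12 of 14 fits) and -1.42 ± 0.59 (FDR 0.0629). The group of 6 linked H4 genes with Hist1h4h, of which Hist1h4c shared 19.6% and Hist1h4k 71.5% of its stretches with other members, fitted as 1 feature, fell by 1.80 ± 0.66 (FDR 0.0445) and by 2.58 ± 0.74 (FDR 0.0122, edgeR).

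Hist2h4 (chr3:96261682-96263311, minus strand), an H4 gene that shares only 1.01% of its stretches with another member, was chosen after its values were seen. It was at 2.25, 2.79, 4.41, 1.93 and 2.89 CPM in WT, at 0.365, 0.0717, 0.377, 0.221 and 0.486 CPM in P28 cKO and at 0.484, 0.705, 0.434 and 0.488 CPM in P4M cKO clones. Each cKO clone was below each WT clone, WT clone 1 included, and Hist2h4 fell by 3.21 ± 0.44 (FDR 0.000167) and by 2.43 ± 0.46 (FDR 0.00099, edgeR) on the log2 scale. Among members called lower in both comparisons it was thus little touched by shared reads.

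The other called members were named after their values were seen. Hist1h4d, an H4 gene, was at 0.0651, 2.83, 1.9, 0.455 and 1.9 CPM in WT, 0.199 to 0.512 CPM in P28 cKO and 0.208 to 0.341 CPM in P4M cKO clones. WT clone 1 was below all cKO clones, and Hist1h4d fell by 2.29 ± 0.68 (FDR 0.0167) and by 2.25 ± 0.73 (FDR 0.0226, edgeR) on the log2 scale. Hist1h2bb, an H2B gene, was at 0.293, 0.535, 0.485, 0.171 and 0.316 CPM in WT, 0.0717 to 0.494 CPM in P28 cKO and 0.0563 to 0.118 CPM in P4M cKO clones. The P4M cKO clones were below all WT clones and near the level of 3 counts, with a fall of 2.05 ± 0.53 (FDR 0.00681), against -0.31 ± 0.45 (FDR 0.616) in P28 cKO clones. Hist1h2bh, another H2B gene, was at 0.326 to 1.82 CPM in WT and at 0.254 to 0.546 CPM in P4M cKO clones, with overlap, and fell there by 1.32 ± 0.46 (FDR 0.0298). Hist1h4n, an H4 gene, and Hist1h2br were called only with both cKO groups averaged, at -1.997 (FDR 0.0194) and -1.92 (FDR 0.0279, edgeR). Of the 50-base stretches of Hist1h4n 85.6% also occurred in other members. Summed with the linked Hist1h4m, it gave -1.88 (FDR 0.0521) in P28 and -1.22 (FDR 0.204) in P4M cKO clones. With both averaged the sum gave -1.55 (FDR 0.0456, edgeR). Hist1h2br is among the 11 linked H2B genes above. Hist2h2be, an H2B gene, was not called and overlapped between groups, at 1.22 to 3.4 CPM in WT and 1.56 to 2.71 CPM in cKO clones, with -0.06 ± 0.29 (FDR 0.891) and 0.00 ± 0.31 (FDR 0.992).

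In the H3 class, Hist2h3c2, the member of highest level, was at 4.36, 20.7, 28.5, 9.1 and 13.4 CPM in WT, 4.22 to 9.42 CPM in P28 cKO and 7.38 to 11.5 CPM in P4M cKO clones. It fell in P28 cKO clones by 1.20 ± 0.40 on the log2 scale (FDR 0.0301, a call lost in 6 of 14 fits) and was at -0.74 ± 0.43 (FDR 0.171, edgeR) in P4M cKO clones. Hist1h3c, the other gene called higher, was named after its values were seen. It was at 0, 0.0765, 0.283, 0.0853 and 0.119 CPM in WT, 0.141 to 0.896 CPM in P28 cKO and 0.336 to 0.523 CPM in P4M cKO clones, close to the level of 3 counts in WT, with 1.84 ± 0.65 (FDR 0.0384) and 1.93 ± 0.67 (FDR 0.0318, edgeR). Leaving out 1 clone ended these calls in 8 and 5 of 14 fits, and the sum of the 9 linked Hist1 H3 genes, of which Hist1h3d had the most counts and shared 24.8% of its stretches, gave -0.03 (FDR 0.969) and 0.31 (FDR 0.704).

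Hist3h2a, an H2A gene and the leading member of Hist3, had the smallest standard errors of the 40 tested members. It was at 19.5, 17.7, 24.8, 18.9 and 28.1 CPM in WT, at 12.75, 15.1, 12.8, 8.8 and 10.4 CPM in P28 cKO and at 14.9, 14.5, 10.4 and 15.1 CPM in P4M cKO clones. All cKO clones were below all WT clones, with falls of 0.87 ± 0.19 (FDR 0.00305) and 0.67 ± 0.20 (FDR 0.0157, edgeR) on the log2 scale. Of its stretches 31.5% occur in other genes, mainly in Trim17, which overlaps it on the same strand. Of the 40 tested members, 2 were above WT in every cKO clone (all genes tested: 9.73%), Hist1h2ao and Hist1h2ap. Below WT in every cKO clone were 4 of the 40 (all genes tested: 8.38%), Hist2h2aa1, Hist3h2a, Hist2h4 and Hist2h2bb. No untested member was apart in either direction. Hist2h2bb, an H2B gene named after its values were seen, was at 0.316 to 0.728 CPM in WT and at 0 to 0.091 CPM in cKO clones, near the level of 3 counts, and lies wholly within other annotated genes, so its reads cannot be placed.

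Between the cKO groups, within 1 submission, no member was called in either direction by edgeR's quasi-likelihood test (all genes tested: 7.22% in either direction). At an unadjusted p under 0.05 there were 2 of 40 (all genes tested: 25.8%), DESeq2 called 1 higher and 1 lower, and limma voom called none. A fit of only these 2 groups, with 38 members tested, called 3 higher, Hist1h1c, Hist1h1d and Hist1h4m, and 1 lower, Hist1h2bb. The shares of all genes called by DESeq2, by limma voom and in the fit of 2 groups are not given here, so these calls have no background beside them. Without WT clone 1, Hist1h1d was called higher (1.74, FDR 0.0171, edgeR), against 5.97% of all genes tested. The 2 under the unadjusted limit were Hist1h1d, at 1.72 ± 0.62 on the log2 scale in P4M against P28 cKO clones (FDR 0.102), and Hist1h2bb, an H2B gene at -1.74 ± 0.52 (FDR 0.0578). The median over the 40 was -0.00, with 20 fold changes on either side of 0, beside -0.01 over all genes tested. For Hist1h2ap, Hist1h2ao and Hist2h2aa1 the differences were -0.38 ± 0.59, -0.35 ± 0.73 and -1.29 ± 0.87, within the spread between clones.

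The genes that act on histone mRNA were described from lists of known roles. Of 15 genes of stem-loop processing and histone transcription, 6 were higher and 0 lower in P28 cKO clones (edgeR, all genes tested: 19.2% and 19.7%). In P4M cKO clones 7 were higher and 1 lower (all genes tested: 22.3% and 23.6%). Slbp was at 36.6, 18.2, 17.5, 18.4 and 18 TPM in WT, 34.2 to 74 TPM in P28 cKO and 34.6 to 49.2 TPM in P4M cKO clones. Only WT clone 1 overlapped the cKO clones, and Slbp rose by 0.97 ± 0.25 (FDR 0.00914) and by 0.85 ± 0.27 (FDR 0.0193) on the log2 scale. Eri1, an exonuclease that trims histone mRNA ends, rose by 1.07 and 1.28, and Ccne2, a cyclin E that drives entry to S phase, by 2.57 and 2.60. WT clone 1 thus had the lowest summed histone level and the highest Slbp of the WT clones.

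Of 20 S phase genes, 18 were higher and 0 lower in both comparisons, with medians of 1.63 and 1.59 on the log2 scale. Beside the counts in this paragraph, 19.2% of all genes tested were higher and 19.7% lower in P28 cKO clones. In P4M cKO clones these shares were 22.3% and 23.6%. Mcm5, a subunit of the replicative helicase, rose by 3.71 and 3.52, and Cdc6, which loads that helicase, by 3.29 and 3.50. All 18 G2 and M phase genes were higher in both comparisons, with medians of 3.65 and 3.90, among them Ccnb1, the mitotic cyclin B1, by 4.60 and 4.52 and Bub1, a spindle checkpoint kinase, by 4.23 and 4.64. Of 14 histone chaperones, 8 were higher and 0 lower in each. Asf1b, which carries H3 and H4, rose by 2.86 and 2.90 and Chaf1b, a subunit of chromatin assembly factor 1, by 2.17 and 2.04. Of 11 replication-independent histone variants, whose genes lie outside the clusters and whose mRNAs for the most part have poly(A) tails, 4 were higher and 1 lower in P28 cKO clones and 5 were higher and 2 lower in P4M cKO clones. Cenpa, the centromeric H3 variant, rose by 3.22 and 3.18, and H2afj, an H2A variant, fell by 1.51 and 1.78, all by edgeR's quasi-likelihood test on the log2 scale. The clustered histone genes thus stood beside lists in which most replication and division genes were called higher, with 3 of their own 40 tested members higher.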

How the data were processed

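Bulk RNA-seq of 14 cultured clones was used, with groups taken from the labels. Per the labels and the study's methods, the authors checked single-end reads with FastQC, aligned them with TopHat and Bowtie2 to mm10, counted non-ambiguous reads with HTSeq and ran DESeq2. The deposited counts are whole numbers per gene and were identical to the deposited expected counts in all 30503 genes. The TPM and FPKM values were deposited by the authors as levels per length, and the program behind them and the expected counts is not given in the sources used here. The depth-normalized and rlog tables were not used.

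Members and gene lists were chosen with earlier results of these data known. Counts were tested with edgeR 4.0.16 in R 4.3.3 (filterByExpr, TMM scaling, robust quasi-likelihood fit of 3 group means, Benjamini-Hochberg over 17358 genes, FDR under 0.05). CPM values are TMM-scaled. TPM served for levels and was not tested. Genes were linked where at least 50% of the 50-base stretches of either of a pair of GENCODE M21 genes occurred in the other, and linked genes were summed. Alternatives were DESeq2 1.42.0, limma voom 3.58.1, RLE or no scaling, other count filters, a 1-log2 minimum fold, only the groups compared, FPKM, leaving out each clone and, chosen after seeing the data, summed linked genes. Depth was 25688946 to 52857424 counts, and no pair of clones agreed within sampling noise. The level of 3 counts covers counting error only. The test code was checked on simulated counts. Figures were drawn with matplotlib 3.10.9 in Python 3.11.15. Named members were the 10 of highest mean TPM, the highest of each class and cluster, and up to 5 called members of largest change in each direction per comparison and mean log2 CPM not under 0; other named genes were Trp53, Slbp and the 2 called genes of largest change in each list.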

Additional observations from a re-analysis of the deposited data

Results flagged for a closer look

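In 7 of 66 group tests, 1 clone stood apart from the others of its group on the log2(CPM + 0.1) scale (summed TPM for the class sums), its gap to the nearest clone being a larger share of the group's range than Dixon's 95% limit allows. Chance flags about 1 in 20 groups. WT clone 1 was the low clone for Hist1h1c (gap 0.729 of the range, 13.8 CPM), Hist1h2bc (0.8234, 9.9 CPM), Hist2h2aa2 (0.7441, 4.07 CPM) and Hist1h2al (0.92, 0.977 CPM), and for the summed TPM of the H2A genes (0.7187, 79.2 TPM). P28 cKO clone 1 was the high clone for Hist2h2aa1 (0.7688, 1.93 CPM), and P4M cKO clone 3 the low clone for Hist3h2a (0.8908, 10.4 CPM). P4M cKO clone 3 was also the clone with Vwf at 104.8 TPM. The part of this in its Hist3h2a value was not tested.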

How the results depend on the processing

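Over the alternatives run, 1134 fold changes of named members kept their direction and side of the threshold, 93 lost a call, 14 gained 1, and 19 changed sign, all of members not called. With limma voom those that changed sign were Hist1h1c with both cKO groups averaged (0.22) and, in P4M cKO clones, Hist1h2bc (0.15), Hist2h2aa2 (0.15) and Hist1h1d (0.26). Leaving out each clone, Hist2h2aa2 ran from -0.084 to 0.48 in P28 cKO, from -0.43 to 0.12 in P4M cKO and from -0.25 to 0.30 with both averaged, and in P4M cKO clones Hist1h1c ran from -0.15 to 0.44 and Hist1h1d from -0.61 to 0.11. Between the cKO groups Hist1h2al ran from -0.42 to 0.18, Hist1h2ao from -0.57 to 0.022, Hist1h4i from -0.036 to 0.22 and Hist1h1e from -0.37 to 0.092. With DESeq2, which tested 62, 63 and 52 members (P28, P4M, and between the cKO groups), 6 members were higher in P28 cKO clones and 6 with both cKO groups averaged (3 each by edgeR), and 1 was higher and 1 lower between the cKO groups. With limma voom, 5 were lower in P28 cKO clones (12 by edgeR) and 9 with both averaged (15). With at least 10 counts in every clone, which left 15 members, 1 was higher in each comparison with WT, 6, 5 and 7 were lower (P28, P4M, both averaged), and 10 G2 and M phase genes were higher in each (18). With only the 10-count minimum, 5 were higher in P28 cKO clones and 5 with both averaged. With linked members summed (19 features), 1 was higher in each comparison with WT and 9, 9 and 11 were lower (P28, P4M, both averaged). The shares of all genes called are not given for the alternative fits here. Their counts therefore do not show whether the members differed from other genes. With only the groups compared, 3 were higher (Hist1h1c, Hist1h1d and Hist1h4m) and 1 lower (Hist1h2bb) between the cKO groups, 1 stem-loop processing gene was higher, 2 variants (1) and 1 chaperone (0) were lower there, and 3 variants were higher in P4M cKO clones (5). With a further minimum of 1 on the size of the log2 fold, 5 chaperones (8) were higher in each comparison, 2 and 4 stem-loop processing genes (6 and 7), and 3 variants in P4M cKO clones. The 1 stem-loop processing gene lower in P4M cKO clones was 0 with DESeq2, both other count filters, no scaling and only the groups compared, and the 1 variant lower between the cKO groups was 0 with the 10-count minimum. Leaving out each clone gave 7 to 21, 8 to 19 and 10 to 22 members lower (P28, P4M, both averaged), 2 to 3, 2 to 4 and 3 to 3 higher, and 0 to 1 in each direction between the cKO groups. In P4M cKO clones it gave 4 to 7 stem-loop processing genes higher and 0 to 1 lower, and 3 to 5 variants higher and 1 to 2 lower. It gave 0 to 1 chaperones lower in each comparison with WT, and between the cKO groups 0 to 1 stem-loop processing genes higher and 0 to 1 variants lower. Summed levels were 811 to 1140 TPM in WT, 817 to 852 in P28 cKO and 738 to 850 in P4M cKO clones. No paired analysis was possible because the labels give no replicate numbers. Depth limits the 25 untested members and those near 3 counts.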
